A study of Homo sapiens with 23 samples.

Results

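The HOX genes encode homeodomain transcription factors that lie side by side in 4 clusters, HOXA on chromosome 7, HOXB on chromosome 17, HOXC on chromosome 12 and HOXD on chromosome 2. A fixed list of 38 HOX genes was followed, out of 28101 genes with counts, and each gene was represented by the transcript row with the highest mean read count over the 8 RNA-seq libraries. All 38 had a row, and 30 passed the filter on low counts and were tested, among 16828 genes tested in all. The libraries hold polyadenylated RNA of HCT116 cells, a line from a human colorectal carcinoma, in 4 groups of 2. Cells labelled MLL4 KO were set against cells labelled WT. Cells labelled BAP1 KO were set against a control that carries the genotype label WT as well. The deposited tables of BAP1 KO and control are named for an osTir1 line, a plant auxin receptor used in degron systems, which the labels do not describe. The labels do not say whether replicates are separate cultures or clones, so p-values measure only the spread between these libraries.

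Position within a cluster follows the body axis: genes of low paralog number lie at the 3′ end and act in the head and neck, and genes of paralog groups 9 to 13 lie at the 5′ end and act in the trunk, limbs and hindgut. HOX clusters are classic targets of opposed chromatin regulators. Polycomb complexes silence them and place ubiquitin on histone H2A, while MLL-family methyltransferases mark active HOX chromatin on histone H3. MLL4, encoded by KMT2D, methylates histone H3 at enhancers, and BAP1 is the nuclear deubiquitinase that removes the Polycomb-placed ubiquitin. The design asks which transcripts depend on either protein.

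Neither targeted mRNA was lower in its knockout. KMT2D had 280 and 406 CPM (counts scaled to library size) in MLL4 KO, against 309 and 371 CPM in WT (log2 fold change 0.01 with an SE of 0.18, adjusted p = 0.970). BAP1 had 67.4 and 57.4 CPM in BAP1 KO, against 56.7 and 62.1 CPM in control (0.07 ± 0.13, adjusted p = 0.747). Fold changes are given throughout as log2 values ± SE. These mRNA levels do not check the labels, since the labels do not say which part of each gene was altered. Counts summed over genes were 24.8 to 42.2 M reads per library. Of 10 colorectal epithelium markers, EPCAM, KRT8, KRT18, KRT19, CDH1, CDX2 and VIL1 passed the count filter, CDX1 was at 0 in all 8 libraries, and CEACAM5 and LGR5 stayed under 0.3 CPM. Summed blood markers reached 0.313 to 1.54 CPM, summed endothelial markers 0.313 to 1.1 CPM and summed fibroblast markers 25.7 to 55.2 CPM, nearly all of the last from COL1A1, while DCN and LUM, and CD3E among the blood markers, were at 0.

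Promoters of 3 genes whose transcripts were lower in BAP1 KO cells are shown here, 250 bases before to 50 bases after the RefSeq start of GRCh38.p14, 5′ to 3′ on the strand of the gene, with every CG dinucleotide in capitals. HOXA4 lies on the minus strand at chr7:27130708-27131007 and holds 27 CG, HOXA9 lies on the minus strand at chr7:27165488-27165787 and holds 22 CG, and HOXD8 lies on the plus strand at chr2:176129455-176129754 and holds 34 CG.
HOXA4: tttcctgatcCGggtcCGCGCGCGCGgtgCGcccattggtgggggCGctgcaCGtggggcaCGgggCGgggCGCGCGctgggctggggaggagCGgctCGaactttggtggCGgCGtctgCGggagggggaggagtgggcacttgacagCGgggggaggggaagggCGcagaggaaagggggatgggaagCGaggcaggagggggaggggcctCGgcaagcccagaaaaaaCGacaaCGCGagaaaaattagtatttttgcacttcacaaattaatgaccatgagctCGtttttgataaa
HOXA9: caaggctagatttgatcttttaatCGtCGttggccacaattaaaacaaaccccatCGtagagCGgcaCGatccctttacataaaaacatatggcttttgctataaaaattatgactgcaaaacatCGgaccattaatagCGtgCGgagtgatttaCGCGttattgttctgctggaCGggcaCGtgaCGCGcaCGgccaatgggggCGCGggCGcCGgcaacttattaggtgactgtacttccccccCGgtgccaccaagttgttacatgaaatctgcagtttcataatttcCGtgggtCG
HOXD8: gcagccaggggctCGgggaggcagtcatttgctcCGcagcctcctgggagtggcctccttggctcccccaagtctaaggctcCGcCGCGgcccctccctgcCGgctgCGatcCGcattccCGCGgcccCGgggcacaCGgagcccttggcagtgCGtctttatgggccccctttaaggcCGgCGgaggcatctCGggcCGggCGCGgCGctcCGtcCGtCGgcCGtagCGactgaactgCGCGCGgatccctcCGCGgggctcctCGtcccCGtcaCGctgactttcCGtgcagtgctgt
RefSeq promoters were matched for 20 of the 38 genes, 27 promoters in all, since genes such as HOXA3 have several starts. Of HOXB only HOXB1 was matched, and of HOXC only HOXC4 and HOXC5, whose promoter is the same interval counted for each gene. The 27 promoters held a median of 22 CG dinucleotides, against 14 over 35116 promoters of the same length. The TATA box letters TATAAA, searched on both strands, stood in 5 of the 27 HOX promoters (18.5%) and in 11.5% of all promoters. The letters TTTATG, which several posterior HOX proteins bind, stood in 3 of the 27 (11.1%) and in 10.6% of all promoters, so the shares were close. The letters AGGTCA repeated after a gap of 5 bases, a retinoic acid receptor element, stood in none of the HOX promoters and in 2 of all promoters.

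The plot of levels in cluster order shows which part of each cluster the cells transcribed. Levels are RPKM scaled by TMM (reads corrected for transcript length and for library size), which can be compared between genes. A mean of at least 1 RPKM was reached by 22 of 38 genes in MLL4 KO, 23 in WT, 21 in BAP1 KO and 24 in control. A mean of at least 10 RPKM was reached by 8 genes in MLL4 KO, 6 in WT, 8 in BAP1 KO and 7 in control. In both knockouts the highest group means were those of HOXB5 to HOXB9 and HOXA9, while in WT and control HOXA10 exceeded HOXB5. HOXC and HOXD were low apart from single genes. The 8 genes that were not tested, HOXB1, HOXC12, HOXD1, HOXD9, HOXD10, HOXD11, HOXD12 and HOXD13, had 1 to 27 reads each over all 8 libraries and never exceeded 0.165 RPKM. They include HOXB1, which patterns the hindbrain, and HOXD13, which patterns the digits, and no difference could be detected at this depth.

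**Figure D1:**
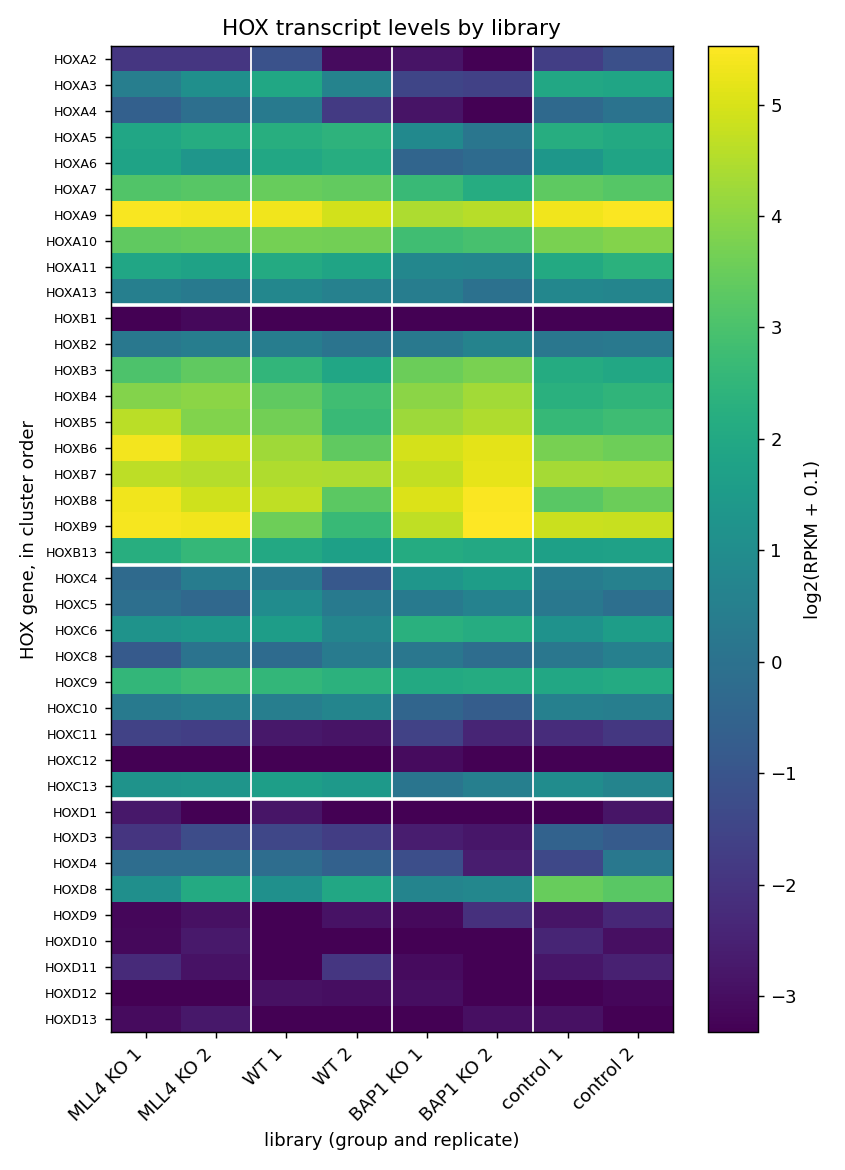
Level of the 38 HOX genes (rows, in cluster order) in the 8 libraries (columns), as log2(RPKM + 0.1), with white lines between clusters and groups. HOXA9 and HOXB7 are bright in every library, HOXB6 and HOXB8 are brighter in each knockout than in its unedited group, and HOXB9 is dimmest in WT. Most of HOXD, with HOXB1 and HOXC12, is dark in every library.

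Summed over its genes, HOXB carried most HOX transcript in both knockouts. The HOXB sum was 201 and 169 RPKM in MLL4 KO, against 112 and 68.6 RPKM in WT, and 167 and 222 RPKM in BAP1 KO, against 90.3 and 90.4 RPKM in control. The HOXA sum was 76.4 and 75.9 RPKM in MLL4 KO, against 83.4 and 68.9 RPKM in WT, whose range encloses both knockout libraries. In BAP1 KO the HOXA sum was 40.2 and 40.0 RPKM, against 81.1 and 86.9 RPKM in control, so both knockout libraries lay below both control libraries. HOXB made up 68.3% and 63.5% of the summed HOX level in MLL4 KO, against 51.9% and 44.0% in WT. It made up 74.4% and 79.4% in BAP1 KO, against 46.1% and 44.7% in control. The HOXC sum stayed between 12.7 and 16.7 RPKM in all 8 libraries. The HOXD sum was 3.18 and 5.39 RPKM in MLL4 KO, against 3.19 and 4.85 RPKM in WT, and 1.95 and 1.87 RPKM in BAP1 KO, against 11.9 and 11.3 RPKM in control. In bulk RNA, fewer cells that transcribe a gene and less transcript per cell cannot be told apart.

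**Figure D2:**
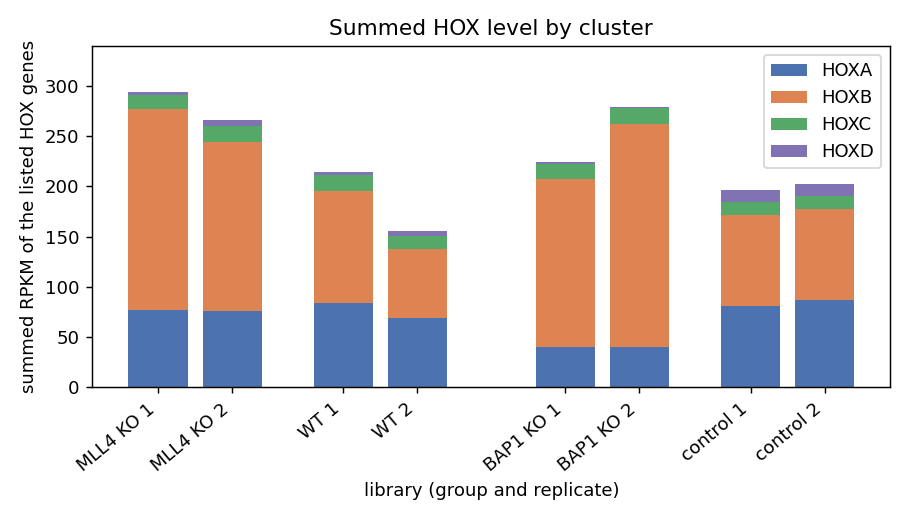
Summed RPKM of the listed genes of each cluster (stacked bars) in each library. The HOXB segment is larger in both knockouts than in their unedited groups, and the HOXA segment in BAP1 KO is 40.2 and 40.0 RPKM, against 81.1 and 86.9 RPKM in control.

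In BAP1 KO cells the HOXA cluster was lower, HOXB3 to HOXB8 were higher, and HOXD3 and HOXD8 were lower than in control cells. Of the 30 genes tested, 6 rose and 11 fell at an adjusted p under 0.05 (edgeR quasi-likelihood test, Benjamini-Hochberg adjustment over all 16828 genes), while 12.1% of all tested genes rose and 10.4% fell, 22.4% in either direction. The median log2 fold change was -0.47 over the 30 HOX genes and 0.01 over all genes. By cluster, 8 of 10 HOXA genes fell (median -1.56), 6 of 9 tested HOXB genes rose (median 1.43), 1 of 8 tested HOXC genes fell (median 0.08) and 2 of 3 tested HOXD genes fell (median -2.72). No HOXA or HOXD gene rose and no HOXB gene fell, by this test, by DESeq2, by limma-voom or at an unadjusted p under 0.05. Leaving out BAP1 KO replicate 1 gave 13 calls, leaving out BAP1 KO replicate 2 or control replicate 1 gave 11, and leaving out control replicate 2 gave 9.

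**Figure D3:**
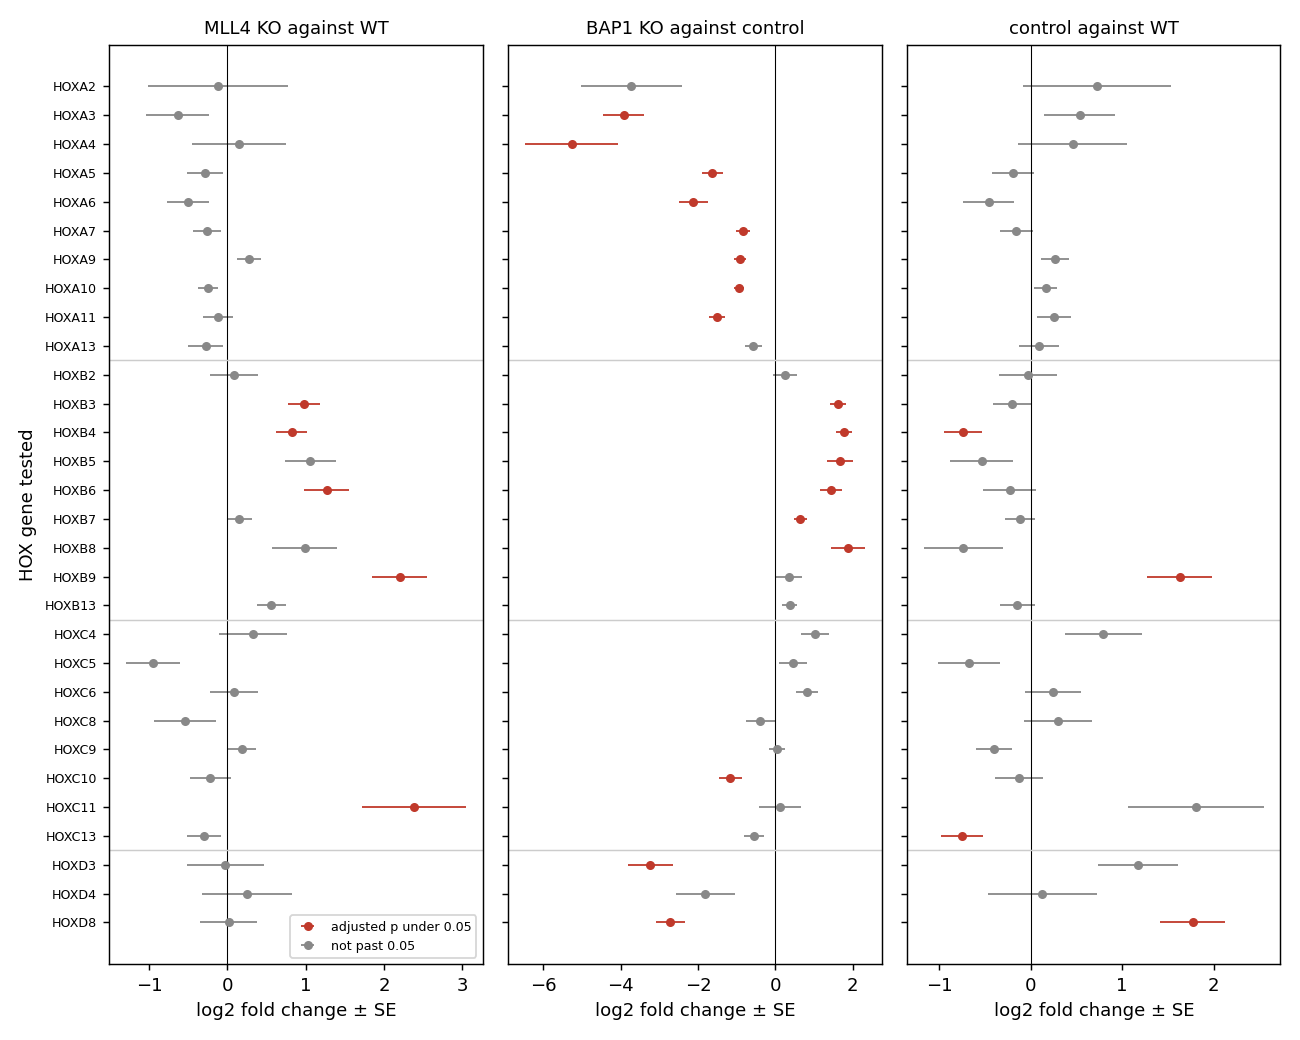
Log2 fold change with its SE (edgeR) of the 30 tested HOX genes, in cluster order, for MLL4 KO against WT (left), BAP1 KO against control (middle) and control against WT (right), with red points past an adjusted p of 0.05. In the middle panel HOXA and HOXD points lie at or below 0 and HOXB points above it.

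The 3′ genes of HOXA, which belong to the anterior and central paralog groups, changed most. HOXA3, needed for thymus and parathyroid formation in mice, had 0.260 and 0.223 RPKM in BAP1 KO, against 3.85 and 3.55 RPKM in control. Its log2 fold change was -3.92 ± 0.53 (adjusted p = 0.00166). The 2 knockout libraries were alike and far below both controls. HOXA3 spans HOXA4, HOXA5, HOXA6 and 2 antisense RNAs, and the row used is the longest of its 14 transcript rows. The row with the fewest reads gave -4.40 (adjusted p = 0.0355).

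HOXA4 had 2 and 0 reads in BAP1 KO, 0.0378 and 0 RPKM, against 0.720 and 0.942 RPKM in control. Pooled counts were 2 against 93, a level 42.8 times lower with a 95% exact counting interval of 11.5 to 359 times, which covers counting error only. The fitted value was -5.26 ± 1.20 (adjusted p = 0.0106), and its adjusted p reached 0.101 at most when 1 library was left out: the call was lost without BAP1 KO replicate 1, BAP1 KO replicate 2 or control replicate 2. HOXA2, a hindbrain and branchial arch gene, had 2 reads in BAP1 KO, against 32 in control. That is 14.7 times lower with a counting interval of 3.76 to 127 times, and it missed the threshold (-3.73 ± 1.30, adjusted p = 0.0620), which it passed without WT replicate 1 (adjusted p = 0.0198) or WT replicate 2 (0.0196).

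The genes from HOXA5 to HOXA7 had intermediate levels. HOXA5, which acts in lung development in mice, had 1.72 and 1.02 RPKM in BAP1 KO, against 4.50 and 4.07 RPKM in control (-1.62 ± 0.27, adjusted p = 0.00312). HOXA6 had 0.645 and 0.756 RPKM in BAP1 KO, against 2.5 and 3.47 RPKM in control (-2.12 ± 0.37, adjusted p = 0.00421). HOXA7 had 6.31 and 4.39 RPKM in BAP1 KO, against 10.1 and 9.11 RPKM in control (-0.84 ± 0.19, adjusted p = 0.0126). In all 3 genes both knockout libraries were below both controls. The HOXA6 call was lost without BAP1 KO replicate 1 or control replicate 2 (adjusted p up to 0.0581), and the HOXA7 call without BAP1 KO replicate 2 or either control library (up to 0.106).

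The 5′ genes of HOXA include the most abundant gene of the cluster, and the fold changes of those called were between those of HOXA7 and HOXA5. HOXA9, a regulator of blood progenitors and a leukaemia oncogene, had 21.3 and 23.6 RPKM in BAP1 KO, against 40.1 and 44.4 RPKM in control. It changed by -0.91 ± 0.15 (adjusted p = 0.00334). HOXA10, which acts in the uterus, had 7.01 and 7.61 RPKM in BAP1 KO, against 13.5 and 14.5 RPKM in control (-0.94 ± 0.13, adjusted p = 0.00134). Both genes share reads with a readthrough transcript that joins them, so their values are not fully separate. HOXA11, which patterns the forearm and the uterus, had 1.63 and 1.56 RPKM in BAP1 KO, against 4.05 and 4.94 RPKM in control (-1.50 ± 0.20, adjusted p = 0.00116). HOXA13, the hindgut and digit gene at the 5′ end, had 1.25 and 0.875 RPKM in BAP1 KO, against 1.63 and 1.54 RPKM in control, and missed the threshold (-0.57 ± 0.22, adjusted p = 0.0992). The HOXA3, HOXA5, HOXA9, HOXA10 and HOXA11 calls held under all 21 alternatives run.

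**Figure D4:**
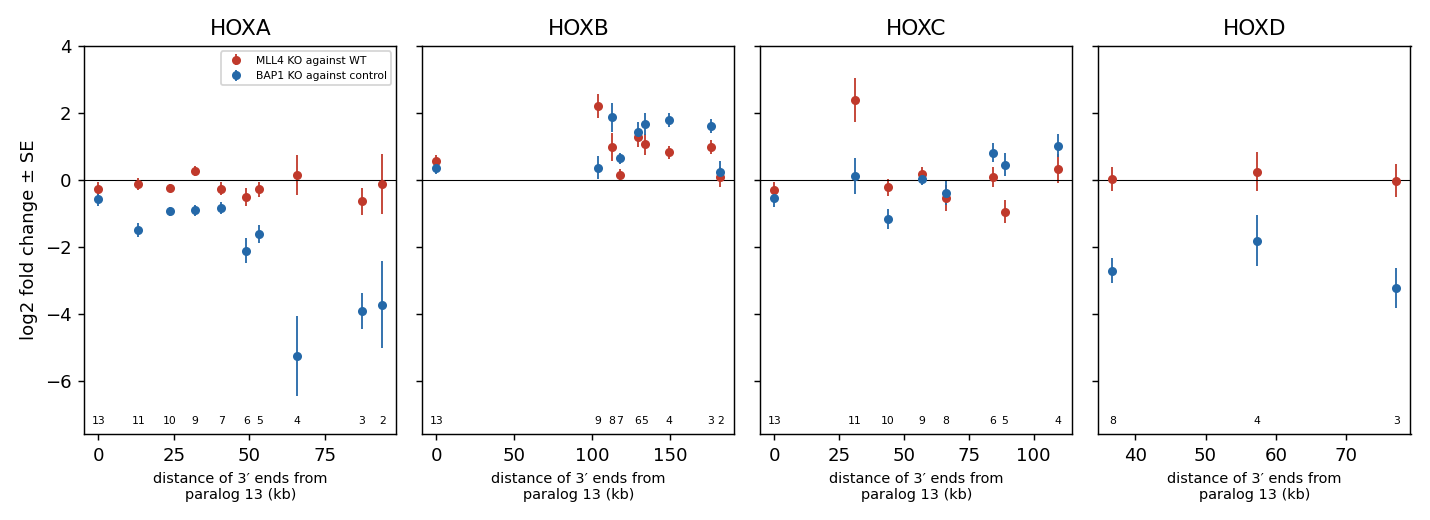
Log2 fold change with its SE of each tested gene against the distance of its 3′ end from that of the paralog 13 gene of its cluster (kb), with paralog numbers along the bottom. In HOXA the BAP1 KO points lie lowest at paralogs 2, 3 and 4, whereas the MLL4 KO points lie near 0 along the cluster.

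HOXB genes from HOXB3 to HOXB8 moved the other way in BAP1 KO cells. HOXB3 had 11.6 and 13.2 RPKM in BAP1 KO, against 4.26 and 3.81 RPKM in control (1.62 ± 0.21, adjusted p = 0.000983). HOXB4, known for expanding blood stem cells, had 15.8 and 19.6 RPKM in BAP1 KO, against 4.85 and 5.39 RPKM in control (1.78 ± 0.21, adjusted p = 0.000539). Both genes were higher in each knockout library than in either control, and both calls held under all 21 alternatives. HOXB3 and HOXB4 overlap, so reads may be shared between them.

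HOXB5, which acts in the enteric nervous system, had 18.8 and 21.9 RPKM in BAP1 KO, against 6.05 and 6.75 RPKM in control (1.67 ± 0.34, adjusted p = 0.0104). HOXB6 had 30.7 and 35.9 RPKM in BAP1 KO, against 13.0 and 11.7 RPKM in control (1.43 ± 0.29, adjusted p = 0.0107). HOXB8, a gene of myeloid cells and microglia in mice, had 33.3 and 43.9 RPKM in BAP1 KO, against 9.56 and 11.4 RPKM in control (1.87 ± 0.43, adjusted p = 0.0240). All 3 were higher in each knockout library than in either control. HOXB7, between them on the chromosome, differed less: it had 26.4 and 36.2 RPKM in BAP1 KO, against 20.2 and 19.8 RPKM in control (0.65 ± 0.16, adjusted p = 0.0193). Each of these 4 calls was lost without either control library. Those of HOXB6, HOXB7 and HOXB8 were also lost without BAP1 KO replicate 2, and that of HOXB8 without BAP1 KO replicate 1 or without the filter on low counts (adjusted p up to 0.164 over the 4 genes).

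The ends of HOXB showed no call in BAP1 KO. HOXB2 had 1.09 and 1.47 RPKM in BAP1 KO, against 1.05 and 1.09 RPKM in control (0.25 ± 0.31, adjusted p = 0.602). HOXB9 had 25.3 and 46.0 RPKM in BAP1 KO, against 28.2 and 27.2 RPKM in control (0.36 ± 0.34, adjusted p = 0.485), so the control libraries lay between the knockout libraries. HOXB13, a marker of hindgut and prostate identity, had 4.26 and 3.94 RPKM in BAP1 KO, against 3.15 and 3.21 RPKM in control (0.37 ± 0.19, adjusted p = 0.194).

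In HOXD, HOXD8 had 1.49 and 1.61 RPKM in BAP1 KO, against 10.8 and 9.53 RPKM in control (-2.72 ± 0.38, adjusted p = 0.00179). HOXD3 had 0.0651 and 0.0436 RPKM in BAP1 KO, against 0.592 and 0.482 RPKM in control (-3.23 ± 0.59, adjusted p = 0.00470). Both were lower in each knockout library than in either control, and no alternative that tested them ended these calls. HOXD4, which overlaps HOXD3, had 0.337 and 0.0627 RPKM in BAP1 KO, against 0.276 and 1.06 RPKM in control, so its groups overlapped (-1.81 ± 0.77, adjusted p = 0.122).

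HOXC was the least changed cluster by count. HOXC10, a gene of the lumbar region, had 0.646 and 0.505 RPKM in BAP1 KO, against 1.33 and 1.27 RPKM in control (-1.16 ± 0.30, adjusted p = 0.0243). That call was lost without any 1 of the 4 libraries compared (adjusted p up to 0.132). HOXC4 had 2.40 and 2.97 RPKM in BAP1 KO, against 1.23 and 1.39 RPKM in control (1.02 ± 0.35, adjusted p = 0.0667), and HOXC6 had 4.80 and 4.33 RPKM in BAP1 KO, against 2.21 and 2.93 RPKM in control (0.81 ± 0.28, adjusted p = 0.0684). Both missed the threshold, and both passed it without either WT library, in the fit of the 4 libraries compared and with crossed replicate numbers. HOXC4, HOXC5 and HOXC6 share a start, so reads may stand in the rows of several of them.

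The other HOXC genes gave no call in BAP1 KO. HOXC9, a thoracic gene, had 4.01 and 4.30 RPKM in BAP1 KO, against 3.86 and 4.20 RPKM in control (0.04 ± 0.20, adjusted p = 0.907). HOXC8 had 1.04 and 0.796 RPKM in BAP1 KO, against 1.04 and 1.35 RPKM in control (-0.39 ± 0.37, adjusted p = 0.497). HOXC13, a hair and nail gene, had 0.975 and 1.30 RPKM in BAP1 KO, against 1.86 and 1.49 RPKM in control (-0.55 ± 0.26, adjusted p = 0.158). HOXC5 had 1.15 and 1.42 RPKM in BAP1 KO, against 1.07 and 0.828 RPKM in control, on a noncoding transcript row (0.46 ± 0.35, adjusted p = 0.387). Its coding row gave -0.96 (adjusted p = 0.268), so its direction depended on the row. HOXC11 had 0.235 and 0.0874 RPKM in BAP1 KO, against 0.120 and 0.173 RPKM in control (0.12 ± 0.54, adjusted p = 0.897).

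Colorectal epithelium markers moved in the same comparison. Their summed level was 2896 and 3380 CPM in BAP1 KO, against 5528 and 5536 CPM in control. Most of the sum in every library came from KRT8, KRT18 and KRT19, which had 1228, 506 and 982 CPM in BAP1 KO replicate 1. Of 7 tested markers 6 fell, beside 10.4% of all tested genes. Among the 6 were CDH1 (-2.27 ± 0.38, adjusted p = 0.00764) and CDX2 (-0.70 ± 0.15, adjusted p = 0.0106), the intestinal homeodomain factor. In MLL4 KO the sum was 5346 and 5365 CPM, against 3688 and 3651 CPM in WT. Of the 7 tested markers KRT8 and KRT18 rose while EPCAM fell (-1.12 ± 0.21, adjusted p = 0.0145), beside 9.12% and 9.97% of all tested genes. The unedited groups differed too: by edgeR 4 of the 7 markers were higher in control than in WT, and none was lower. Of all tested genes 19.9% were higher in control and 19.7% lower. CDH1 was among the 4 (1.75 ± 0.38, adjusted p = 0.0105), whereas CDX2 was not (0.05 ± 0.15, adjusted p = 0.820). For CDH1, BAP1 KO replicate 1 was at 28.0 CPM, but replicate 2, at 70.2 CPM, lay between the WT values of 78.0 and 62.3 CPM. The marker sums of BAP1 KO were below those of WT, but nearer to WT than to control. The part of these shifts in the HOX differences was not tested.

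In MLL4 KO cells 5 HOX genes rose and none fell, and 4 of the 5 lie in HOXB. This is 5 of 30 tested genes higher and 0 lower (edgeR quasi-likelihood test, adjusted p under 0.05), while 9.12% of all tested genes rose and 9.97% fell. At 16.7%, the share of HOX genes called in either direction was below the 19.1% of all genes, and the median was 0.09 over HOX genes and 0.00 over all genes. By cluster, 4 of 9 tested HOXB genes rose (median 0.98), 1 of 8 HOXC genes rose (median -0.07), and no gene of HOXA (median -0.25) or HOXD (median 0.02) passed the threshold. DESeq2 and limma-voom also called no gene lower and none in HOXA or HOXD. At an unadjusted p under 0.05, 7 HOX genes were higher and 1, HOXC5, was lower, with none in HOXA or HOXD. All 5 calls were lost without WT replicate 2 and in a fit of the 4 libraries alone. The count was 4 without MLL4 KO replicate 1, 1 without MLL4 KO replicate 2, 8 without WT replicate 1, and 2 without control replicate 1 or replicate 2.

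HOXB9, a posterior HOXB gene, had 41.8 and 40.5 RPKM in MLL4 KO, against 11.8 and 6.18 RPKM in WT. Its log2 fold change was 2.20 ± 0.36 (adjusted p = 0.0132). The MLL4 KO libraries were close to each other and well above both WT libraries, which differed among themselves. HOXB6 had 41.4 and 28.4 RPKM in MLL4 KO, against 19.0 and 10.1 RPKM in WT (1.27 ± 0.29, adjusted p = 0.0248). HOXB3 had 8.13 and 10.1 RPKM in MLL4 KO, against 5.63 and 3.65 RPKM in WT (0.98 ± 0.21, adjusted p = 0.0179). HOXB4 had 14.7 and 15.8 RPKM in MLL4 KO, against 10.3 and 6.98 RPKM in WT (0.82 ± 0.20, adjusted p = 0.0247). In each of these genes both knockout libraries were above both WT libraries.

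HOXC11, which overlaps the noncoding RNA HOTAIR, had 0.237 and 0.212 RPKM in MLL4 KO, against 0.0476 and 0.0383 RPKM in WT. It passed the threshold at a low level (2.38 ± 0.66, adjusted p = 0.0359) and lost the call in 10 of 20 alternatives, with adjusted p up to 0.182.

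**Figure D5:**
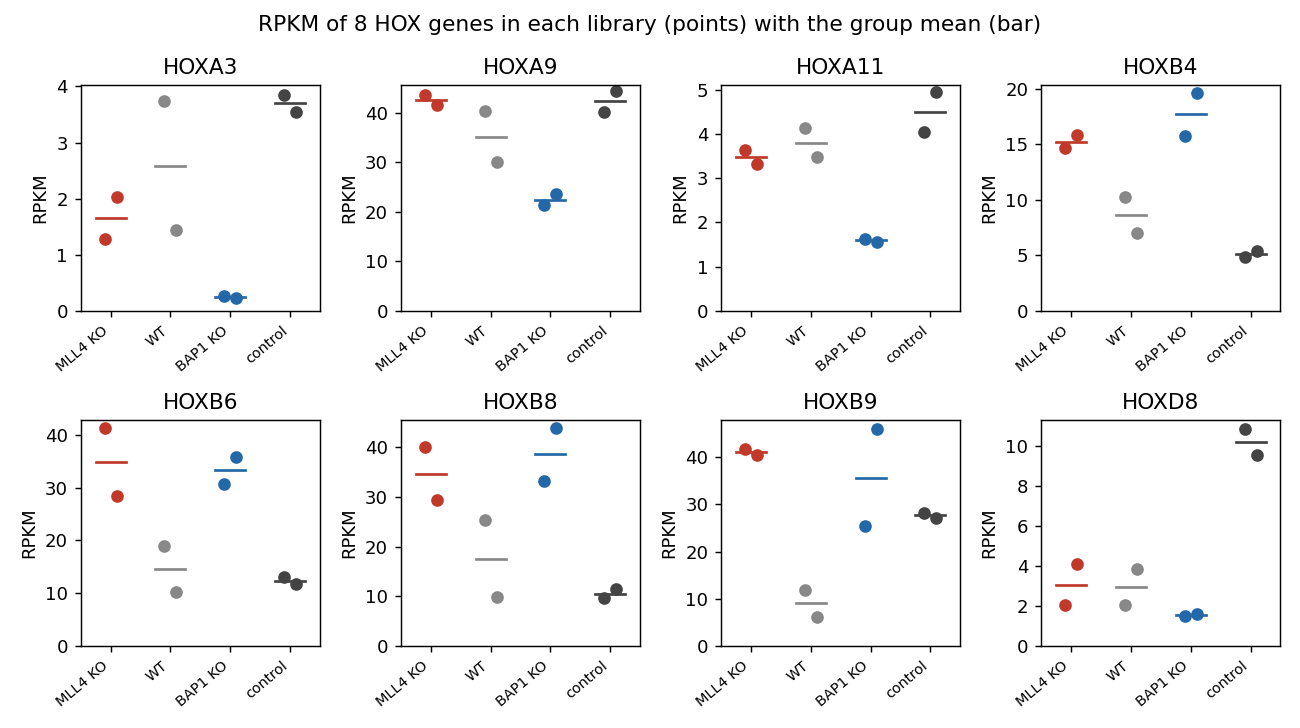
RPKM of 8 HOX genes in each library (points), with group means (bars), in MLL4 KO, WT, BAP1 KO and control. HOXB4, HOXB6 and HOXB8 are higher in both knockouts than in their unedited groups, HOXA3, HOXA9, HOXA11 and HOXD8 are lower in BAP1 KO than in control, and WT replicates of HOXB8 are 25.4 and 9.75 RPKM.

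Other HOXB genes had higher means in MLL4 KO without passing the test. HOXB5 had 24.2 and 14.5 RPKM in MLL4 KO, against 12.4 and 6.35 RPKM in WT (1.06 ± 0.33, adjusted p = 0.0558). HOXB8 had 40.1 and 29.3 RPKM in MLL4 KO, against 25.4 and 9.75 RPKM in WT (0.99 ± 0.42, adjusted p = 0.141). HOXB13 had 4.62 and 5.79 RPKM in MLL4 KO, against 3.91 and 3.16 RPKM in WT (0.56 ± 0.18, adjusted p = 0.0600). In all 3 the MLL4 KO libraries were above the WT libraries. Among the alternatives, all 3 passed the threshold without WT replicate 1, at adjusted p of 0.00762, 0.00261 and 0.0307 in that order. HOXB7 had 25 and 23.1 RPKM in MLL4 KO, against 21.9 and 21.4 RPKM in WT (0.15 ± 0.16, adjusted p = 0.526). HOXB2 had 1.08 and 1.26 RPKM in MLL4 KO, against 1.26 and 0.955 RPKM in WT, and its groups overlapped (0.08 ± 0.30, adjusted p = 0.867).

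With all 8 libraries no HOXA gene passed the test in MLL4 KO against WT. HOXA9 had 43.6 and 41.5 RPKM in MLL4 KO, against 40.3 and 30.0 RPKM in WT (0.28 ± 0.15, adjusted p = 0.217), and it passed without WT replicate 1 (0.50, adjusted p = 0.0207). HOXA10 had 10.2 and 10.8 RPKM in MLL4 KO, against 12.7 and 12.3 RPKM in WT (-0.25 ± 0.13, adjusted p = 0.190). HOXA3 had 1.29 and 2.03 RPKM in MLL4 KO, against 3.73 and 1.44 RPKM in WT (-0.64 ± 0.40, adjusted p = 0.291), and both knockout values of HOXA4, 0.553 and 0.839 RPKM, lay between the WT values of 1.13 and 0.185 RPKM. The WT libraries thus differed from each other at the 3′ end of HOXA and in HOXB. HOXA5 had 3.68 and 4.36 RPKM in MLL4 KO, against 4.57 and 5.18 RPKM in WT (-0.29 ± 0.23, adjusted p = 0.396), and HOXA6 had 3.43 and 2.41 RPKM in MLL4 KO, against 3.88 and 4.46 RPKM in WT (-0.50 ± 0.27, adjusted p = 0.213). HOXA7 had 8.56 and 9.32 RPKM in MLL4 KO, against 10.9 and 10.4 RPKM in WT. Knockout levels of these genes lay somewhat below WT in each library. HOXA11 had 3.64 and 3.33 RPKM in MLL4 KO, against 4.13 and 3.48 RPKM in WT, and HOXA13 had 1.30 and 1.14 RPKM in MLL4 KO, against 1.60 and 1.39 RPKM in WT. HOXA2, HOXA7, HOXA11 and HOXA13 had log2 fold changes between -0.28 and -0.12 with adjusted p of 0.330 or more.

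HOXC and HOXD genes other than HOXC11 gave no call in MLL4 KO. HOXC5 had 0.834 and 0.692 RPKM in MLL4 KO, against 1.88 and 1.15 RPKM in WT, on its noncoding row (-0.95 ± 0.34, adjusted p = 0.0797). Its coding row gave -1.66 (adjusted p = 0.0277) and the sum of its rows -1.25 (adjusted p = 0.0381), both past the threshold. HOXC13 had 2.22 and 2.33 RPKM in MLL4 KO, against 2.99 and 2.60 RPKM in WT (-0.30 ± 0.22, adjusted p = 0.359). HOXC9 had 5.64 and 6.52 RPKM in MLL4 KO, against 5.66 and 5.03 RPKM in WT, and HOXC6 had 2.21 and 2.45 RPKM in MLL4 KO, against 2.92 and 1.52 RPKM in WT, so both overlapped between groups. HOXC4 had 0.732 and 1.21 RPKM in MLL4 KO, against 1.13 and 0.441 RPKM in WT (0.33 ± 0.43, adjusted p = 0.618). HOXC8 had 0.462 and 0.935 RPKM in MLL4 KO, against 0.754 and 1.19 RPKM in WT (-0.54 ± 0.40, adjusted p = 0.351). HOXC10 had 1.12 and 1.33 RPKM in MLL4 KO, against 1.28 and 1.54 RPKM in WT (-0.22 ± 0.26, adjusted p = 0.574). These 3 genes also overlapped between groups. HOXD8 had 2.02 and 4.11 RPKM in MLL4 KO, against 2.06 and 3.84 RPKM in WT (0.02 ± 0.36, adjusted p = 0.978), and HOXD3 had 0.158 and 0.320 RPKM in MLL4 KO, against 0.269 and 0.204 RPKM in WT (-0.03 ± 0.49, adjusted p = 0.978). HOXD4 gave 0.25 ± 0.57 (adjusted p = 0.783).

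The effects of the knockouts, each against its own unedited group, differed in HOXA and HOXD. The difference, MLL4 KO effect minus BAP1 KO effect, passed an adjusted p of 0.05 (edgeR) in 11 of 30 HOX genes, 10 positive and 1 negative, while 7.74% of all tested genes were positive and 8.32% negative, 16.1% in either direction. Of the 10 HOXA genes, 7 passed, each with a lower value in BAP1 KO. The difference was 1.19 ± 0.22 for HOXA9 (adjusted p = 0.00804), 1.38 ± 0.27 for HOXA11 (adjusted p = 0.0119) and 2.74 ± 0.52 for HOXD8 (adjusted p = 0.0120). In HOXB it passed for HOXB9 (1.84 ± 0.48, adjusted p = 0.0442) and, with the opposite sign, for HOXB4 (-0.96 ± 0.28, adjusted p = 0.0480). With all 8 libraries the other HOXB genes gave no call of a difference, which does not show that they respond alike: the difference was -0.64 ± 0.29 for HOXB3, -0.61 ± 0.46 for HOXB5, -0.16 ± 0.40 for HOXB6 and -0.89 ± 0.59 for HOXB8. In place of 11 calls, leaving out 1 library gave 8 (MLL4 KO replicate 1), 5 (MLL4 KO replicate 2), 1 (BAP1 KO replicate 1 or control replicate 2), 4 (BAP1 KO replicate 2) or 2 (control replicate 1), and 10 for either WT library. Without WT replicate 1 all 10 were positive, whereas without WT replicate 2 there were 6 positive and 4 negative, and HOXB3 (-0.93, adjusted p = 0.0343), HOXB8 (-1.42, adjusted p = 0.0229) and HOXC5 (-1.74, adjusted p = 0.0417) gained a negative call.

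The unedited groups differed from each other in few HOX genes. Control set against WT gave 2 genes higher and 2 lower (edgeR, adjusted p under 0.05), 13.3% of the 30 tested, while 19.9% of all tested genes were higher and 19.7% lower, 39.6% in either direction. This comparison shares the WT libraries with MLL4 KO against WT and the control libraries with BAP1 KO against control. HOXD8 had 10.8 and 9.53 RPKM in control, against 2.06 and 3.84 RPKM in WT (1.77 ± 0.35, adjusted p = 0.00470), so its level in BAP1 KO, 1.49 and 1.61 RPKM, was nearer to WT than to control. HOXB9 had 28.2 and 27.2 RPKM in control, against 11.8 and 6.18 RPKM in WT (1.63 ± 0.35, adjusted p = 0.010). HOXB4 had 4.85 and 5.39 RPKM in control, against 10.3 and 6.98 RPKM in WT (-0.74 ± 0.21, adjusted p = 0.0190), and HOXC13 had 1.86 and 1.49 RPKM in control, against 2.99 and 2.60 RPKM in WT (-0.75 ± 0.23, adjusted p = 0.0290). The HOXD8 call held under all 21 alternatives. The HOXB4 and HOXC13 calls were lost without WT replicate 1 or either control library (adjusted p up to 0.128 and 0.238), and the HOXB9 call without control replicate 1 (0.0520). In place of 4 calls, leaving out WT replicate 1 gave 7, WT replicate 2 gave 6, control replicate 1 gave 1 and control replicate 2 gave 2.

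No HOXA gene was called between control and WT, also not by DESeq2, limma-voom or at an unadjusted p under 0.05, but this rests on WT replicate 1. Without that library HOXA3 (1.35, adjusted p = 0.00694), HOXA4 (2.18, adjusted p = 0.0199), HOXA9 (0.50, adjusted p = 0.0151) and HOXA2 (3.83, adjusted p = 0.0358) were higher in control than in WT, against 0.53, 0.46, 0.27 and 0.73 with it. The BAP1 KO levels of every listed HOXA gene from HOXA3 to HOXA13 lay below every library of both unedited groups, although HOXA13 was not called. HOXA2 was the exception: WT replicate 2 was at 0.0185 RPKM, between the BAP1 KO values of 0.03785 and 0 RPKM. How many of all tested genes have libraries that do not overlap between groups was not counted. Such orders, here and in the other comparisons, only describe the genes named. For HOXA4, WT replicate 2 was at 0.185 RPKM, between the BAP1 KO values of 0.0378 and 0 RPKM and the other unedited values of 0.720 to 1.13 RPKM. For HOXB8, WT replicate 1 was at 25.4 RPKM, below the BAP1 KO values of 33.3 and 43.9 RPKM and above both control values.

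Noncoding RNAs that lie within the clusters were counted from a fixed list of 19, of which 14 were tested. In BAP1 KO 2 rose and 6 fell (median -1.06), beside 12.1% and 10.4% of all tested genes. In MLL4 KO, where 9.12% of all genes rose and 9.97% fell, edgeR called none (median 0.41), DESeq2 and limma-voom called 1 higher each, and an unadjusted p under 0.05 was reached by 2 higher and 1 lower. HOTAIRM1, transcribed from the 3′ end of HOXA, had 1.74 and 0.648 RPKM in BAP1 KO, against 5.97 and 5.62 RPKM in control (-2.24 ± 0.41, adjusted p = 0.00518). In WT it had 2.15 and 1.23 RPKM, and control was higher than WT (1.80 ± 0.40, adjusted p = 0.00632). BAP1 KO replicate 1 thus lay between the WT libraries, and replicate 2 below both. HOXA10-AS had 10.7 and 12.3 RPKM in BAP1 KO, against 24.5 and 25 RPKM in control (-1.11 ± 0.15, adjusted p = 0.00109). HOXB-AS3 had 21.5 and 23.8 RPKM in BAP1 KO, against 8.98 and 8.92 RPKM in control (1.34 ± 0.38, adjusted p = 0.0372), and HOXB-AS1 also rose (1.22 ± 0.29, adjusted p = 0.0157). The other 4 that fell were HOTTIP, HOXA-AS2, HOXA-AS3 and HOXD-AS2. HOTTIP had 2 and 2 reads in BAP1 KO, against 8 and 18 in control and 4 and 3 in WT. HOXA-AS2 had 2 and 0 reads in BAP1 KO, against 19 and 30 in control, and HOXD-AS2 had 8 and 6, against 35 and 47. The calls of HOTTIP, HOXA-AS2 and HOXD-AS2 thus rest on few reads. The sources used here do not state whether strand was used in counting, so reads of these RNAs and of the HOX genes they overlap cannot be told apart.

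Other genes were counted up to 500 kb from the outermost listed HOX gene, 45 tested genes in all, of which MIR196B, PRAC2 and LOC401021 lie inside a cluster. In BAP1 KO 6 rose and 5 fell (median 0.07), beside 12.1% and 10.4% of all tested genes. In MLL4 KO 6 rose and 2 fell (median 0.14), beside 9.12% and 9.97%. The shares called in either direction were near those of all genes. SKAP2, an adaptor protein gene beside the 3′ end of HOXA, fell to 2.78 and 1.82 CPM in BAP1 KO, against 57.4 and 58.1 CPM in control (-4.64 ± 0.38, adjusted p = 0.000213). In MLL4 KO SKAP2 differed by 0.00 from WT. LOC401021, within HOXD, also fell in BAP1 KO (-2.73 ± 0.57, adjusted p = 0.00877), as did MTX2, a mitochondrial import gene (-0.49 ± 0.14, adjusted p = 0.0387). MAP3K12, a kinase gene near HOXC, rose (1.53 ± 0.12, adjusted p = 9.95e-05), and CBX1, a heterochromatin protein gene near HOXB, rose (1.15 ± 0.15, adjusted p = 0.00117). Control was below WT for CBX1 (-1.72 ± 0.16, adjusted p = 8.47e-05, edgeR). Its BAP1 KO values of 157 and 130 CPM lay between control (62.3 and 66.9 CPM) and WT (204 and 223 CPM).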

How the data were processed

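RNA-seq of poly(A) RNA was deposited as 8 tables, 2 libraries per group, and the 15 ChIP-seq samples were not analysed here. Each deposited table holds a whole-number read count and an RPKM value per RefSeq transcript, per the file headers. Per the submitters' processing notes, bcl2fastq, STAR, Bowtie2 and SICER 1.1 were used in the series with build hg38, with no role named, and the sources used here do not state the counting tool or its settings. Reads in exons that isoforms share are counted for every isoform. The deposited RPKM values entered no test and served only to recover transcript lengths.

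Transcript identifiers were matched to symbols through RefSeq GRCh38.p14, and 611 of 88819 rows without a symbol (0.233% to 0.256% of counts) were left out. The row with the highest mean count stood for each gene. The test was edgeR 4.0.16 in R 4.3.3: filterByExpr, TMM, and 1 robust quasi-likelihood fit of all 8 libraries with a mean per group, two-sided, with Benjamini-Hochberg adjustment over 16828 genes and a threshold of 0.05. The script was tested on data simulated with the same spread for every gene. That checks the contrasts and their sign, not false calls at the spread of these libraries. Levels are TMM-scaled RPKM, or CPM where stated. Exact counting intervals are 95% and cover counting error only. Reads behind the deposited RPKM values were 31.6 to 54.8 M per library.

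Values in every library are given for the 28 genes that passed the threshold in any comparison or reached a group mean of 1 RPKM, and other genes are given by range. HOXA2 and HOXD4 fall outside that rule and were chosen after their values were seen. The HOX list, the other lists, the tests and the alternatives were chosen with earlier results of these data known. The alternatives tried were upper-quartile and RLE scaling, limma-voom (limma 3.58.1), DESeq2 1.42.0, no filter, 1 CPM in 4 libraries, the 4 libraries compared, a replicate block, each library left out, and the longest or the summed transcript rows. The transcript row with the lowest count, a crossed block and the legacy dispersion of edgeR were added after seeing the data.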

Additional observations from a re-analysis of the deposited data

Results flagged for a closer look

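The difference between the knockouts, MLL4 KO effect minus BAP1 KO effect on the log2 scale, passed edgeR's test of the difference itself in 11 HOX genes. In HOXA it was 3.28 for HOXA3 (adjusted p = 0.0168), 5.40 for HOXA4 (0.0288), 1.34 for HOXA5 (0.0336), 1.61 for HOXA6 (0.0462, a call lost in 11 of 20 alternatives), 1.19 for HOXA9 (0.00804), 0.69 for HOXA10 (0.0331) and 1.38 for HOXA11 (0.0119). In HOXD it was 3.20 for HOXD3 (adjusted p = 0.0271) and 2.74 for HOXD8 (0.0120). In all of these the BAP1 KO effect was the lower one. In HOXB it was 1.84 for HOXB9 (adjusted p = 0.0442) and -0.96 for HOXB4 (0.0480), whose call held in 5 of 20 alternatives. HOXB9 and HOXB4 also differed between control and WT, and HOXD8 did so too. Groups of 2 libraries are too small to test for a single library that stands apart.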

How the results depend on the processing

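Over 21 alternatives no call changed direction. The count of HOX genes called in MLL4 KO against WT was 5, fell to 0 in the fit of the 4 libraries compared, and ranged from 0 to 8 with 1 library left out. In BAP1 KO against control it was 17 and ranged from 9 to 20 with 1 library left out, and in the other alternatives it stayed between 16 and 19. In control against WT it was 4 and ranged from 1 to 7. For the difference of the effects it was 11, ranged from 1 to 10 with 1 library left out, and was 7 for the sum of transcript rows. Same-numbered libraries did not deviate together (r = -0.143 for MLL4 KO with WT and 0.006 for BAP1 KO with control), so the numbers give no pairing. The names of some deposited tables carry numbers other than the replicate numbers of the titles, so what a number stands for is not known. With the replicate number as a block the counts were 5, 17, 4 and 6 in the order above, and with the WT numbers crossed 5, 19, 4 and 10. Leaving out a library also leaves fewer residual degrees of freedom, and the lone library of a group is assumed to vary like the others. Of the values of the 28 genes given in every library, 2111 kept their side of the threshold, 128 lost a call, 33 gained one, and 44 uncalled values changed sign, and HOXA2, outside these 28, gained a call without a WT library. HOX genes with 27 or fewer reads over the 8 libraries were not tested. The causes of these changes were not tested.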

Other observations

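The cofactors and regulators of HOX genes were counted from lists chosen with earlier results known. Of 9 tested TALE homeodomain genes, whose proteins bind DNA together with HOX proteins, 4 rose in BAP1 KO and 2 in MLL4 KO, and edgeR, DESeq2 and limma-voom called none lower, with 1 lower in BAP1 KO at an unadjusted p under 0.05. MEIS3 had 31.2 and 30.4 RPKM in BAP1 KO, against 12.9 and 14.2 RPKM in control (1.18 ± 0.27, adjusted p = 0.0156, edgeR). It had 18.7 and 26.0 RPKM in MLL4 KO, against 11.6 and 6.12 RPKM in WT (1.34 ± 0.27, adjusted p = 0.0179). Over all tested genes 12.1% rose and 10.4% fell in BAP1 KO, and 9.12% rose and 9.97% fell in MLL4 KO, 22.4% and 19.1% in either direction. PBX2, PBX4 and PKNOX1 rose in BAP1 KO by 0.54 to 0.95, and TGIF1 rose in MLL4 KO (0.79 ± 0.13, adjusted p = 0.0104). TGIF1 was also higher in control than in WT (0.63 ± 0.13, adjusted p = 0.00536, edgeR). PKNOX1 was lower in control than in WT (-0.54 ± 0.19, adjusted p = 0.0444). Its BAP1 KO values of 3.91 and 4.46 RPKM lay between the WT values of 3.28 and 4.55 RPKM.

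Of 28 Polycomb genes, 7 rose and 2 fell in BAP1 KO, beside 12.1% and 10.4% of all tested genes. In MLL4 KO 3 rose and 5 fell, beside 9.12% and 9.97%. EZH2, the H3K27 methyltransferase, had 25.9 and 23.7 RPKM in BAP1 KO, against 16.2 and 15.2 RPKM in control (0.66 ± 0.12, adjusted p = 0.00458). In MLL4 KO it had 28.3 and 27.9 RPKM, against 35.4 and 39.9 RPKM in WT (-0.42 ± 0.12, adjusted p = 0.0364). Control was below WT for EZH2 (-1.26 ± 0.12, adjusted p = 0.000104), so its BAP1 KO level lay between those of the unedited groups. BMI1, a subunit of the complex that ubiquitinates histone H2A, fell in both, by 1.21 in BAP1 KO and by 0.72 in MLL4 KO. CBX7, a reader of H3K27 methylation, rose in both, by 0.98 in BAP1 KO and by 1.17 in MLL4 KO.

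Of 13 HOX activators, 4 rose and none fell in BAP1 KO by edgeR or limma-voom, with 1 lower by DESeq2 and 3 lower at an unadjusted p under 0.05, and those that rose include KMT2A, the MLL1 methyltransferase (0.50 ± 0.13, adjusted p = 0.0226), and PSIP1, its chromatin tether (1.05 ± 0.12, adjusted p = 0.000488). In MLL4 KO 2 rose, KDM6A and KDM6B, and 2 fell, DOT1L and WDR5. Control differed from WT in the same directions for KDM6B (1.27 ± 0.14), DOT1L (-0.97 ± 0.15) and WDR5 (-0.67 ± 0.16), at adjusted p of 0.00935 or less (edgeR). KDM6A was not called between control and WT (0.39 ± 0.17, adjusted p = 0.0937). Over all tested genes 22.4% were called in either direction in BAP1 KO and 19.1% in MLL4 KO. Of 12 tested retinoic acid genes, 2 rose and 2 fell in BAP1 KO, and 1 rose and 1 fell in MLL4 KO, beside the same shares. RARG, a retinoic acid receptor, had 17.2 and 17.5 RPKM in BAP1 KO, against 27.2 and 27.6 RPKM in control (-0.66 ± 0.18, adjusted p = 0.0268). Of 6 tested relatives of the HOX class, CDX2 fell and GBX1 rose in BAP1 KO, and GBX2 fell in MLL4 KO, beside the same shares. GBX2 was also lower in control than in WT (-1.42 ± 0.23, adjusted p = 0.00154, edgeR). DESeq2 and limma-voom did not call GBX1.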
